A study of Mus musculus with 4 samples.

Results

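The genes described here are 10 transcription factors of the mesenchyme of the foregut, lung and intestine: *Foxf1*, *Foxf2*, *Foxl1*, *Barx1*, *Nkx2-3*, *Osr1*, *Tbx2*, *Tbx3*, *Tbx4* and *Tbx5*. They were taken by name, with every probe that the array annotation gives to them, a rule that uses no measured value, although the choice of the genes was made with earlier results of these data known. This gave 10 of 37074 genes and 11 of 56604 probes, because *Tbx3* has a pair of probes and each other gene has 1. The study had itself singled out *Foxf2* and *Foxl1* on these arrays, so their values here are not independent evidence.

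The study asked what the loss of *Dyrk2*, a protein kinase gene, does to gene expression in the mouse embryo. RNA of whole embryos, of the strain C57BL/6 by the labels and C57BL/6J in the paper, was labelled with Cy3 and hybridized to 4 Agilent SurePrint G3 arrays of 1 slide, with 1 array for each group. The groups were wild-type (WT) embryos at E8.5 (embryonic day 8.5), *Dyrk2*-/- embryos at E8.5, WT embryos at E10.5 and *Dyrk2*-/- embryos at E10.5. Mutant mice of 3 lines were made with a CRISPR/Cas9 nickase that left small deletions in *Dyrk2*. The line and the number of embryos behind each RNA are not given in the text of the paper.

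During gut development, the endoderm forms the inner tube and the surrounding splanchnic mesoderm becomes the muscle and connective tissue of its wall. Hedgehog ligands made by the endoderm signal to this mesoderm, where Gli proteins switch on forkhead genes such as *Foxf1*, *Foxf2* and *Foxl1*. Homeobox, zinc finger and T-box factors divide the same mesoderm into regions that go on to form the stomach wall, the spleen, the trachea and the lung, and several of them also act in heart, limb and kidney.

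Each value below is the log2 of the background-subtracted intensity of a probe minus the 75th percentile of its array, so that 0 is the 75th percentile. The ± after a difference is a spot error, taken from probes printed several times on the same arrays at a like signal. It tells how well spots on an array repeat, and says nothing of how embryos vary, for which there was no replicate. Levels of different probes cannot be set against each other, because each probe binds with its own strength. In RNA of whole embryos, fewer cells of a type and less RNA per cell cannot be told apart.

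*Dyrk2* did not serve as a check of the labels. Its brighter probe read 0.06 on the WT array and 0.76 on the array labelled *Dyrk2*-/- at E8.5, then −0.31 and 0.34 at E10.5. At both stages it was thus higher on the array labelled *Dyrk2*-/-, by 0.70 ± 0.18 at E8.5, with 0.65 ± 0.15 at E10.5, and it stayed higher under each scaling tried, down to 0.15 at E8.5 when the arrays were scaled to their spike-in control probes. The other probe read −0.23, −0.20, −0.28 and 0.00 in the same order. The study also measured genes by PCR in embryos of both stages. It reports *Foxf2* and *Foxl1* among genes decreased in *Dyrk2*-/- embryos, citing its array heatmaps together with PCR. That is the direction the labels give for both genes on these arrays. The study also reports *Foxf1* as reduced in *Dyrk2*-/- embryos by PCR. Its signal here was 0.13 ± 0.11 higher at E10.5 on the array labelled *Dyrk2*-/-, which is not that direction. Whether the PCR used the RNA of these arrays is not given in the text of the paper, and the PCR values were not used here. Every direction given below is therefore that of the array labelled *Dyrk2*-/- against the WT array.

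The arrays also differed in ways that go beyond gut mesenchyme. The median CV between spots of 1 probe was 7.76% on the WT array and 9.75% on the array labelled *Dyrk2*-/- at E8.5, then 5.45% and 6.67% at E10.5. The array labelled *Dyrk2*-/- at E8.5 was the only 1 outside the range that the scanner software sets for this value, and it also had the lowest 75th percentile (log2 8.35, beside 8.61 to 8.79 on the others). Each E8.5 difference between genotypes and each stage difference on the arrays labelled *Dyrk2*-/- uses it, and its part in them was not tested. The summed signal of 9 erythroid marker genes, in units of the 75th percentile, was 13.5 on the WT array and 264 on the array labelled *Dyrk2*-/- at E8.5, then 819 and 987 at E10.5. *Xist*, which is expressed from the inactive X chromosome of female cells, and the Y-linked *Ddx3y* were looked at after their values had been seen. At E10.5 *Xist* was −7.01 on the WT array and −0.37 on the array labelled *Dyrk2*-/-, while *Ddx3y* was −2.02 and −6.98. At that stage the sex of the embryos therefore cannot be told apart from the genotype. At E8.5 *Xist* was below the mark for well above background on both arrays, and *Ddx3y* was −1.56 on both.

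Between genotypes, the clearest differences among the 10 factors were those of *Foxf2* and *Foxl1* at E10.5, both lower on the array labelled *Dyrk2*-/- under every setting tried. At E8.5 neither these nor any other of the 10 factors reached 1.5-fold, the threshold the paper states. Of the 9 well above background on both arrays, 5 were 1.5-fold lower under spike-in scaling, beside 45.9% of genes. Without scaling 3 were, beside 12.2%. Between stages the factors split: *Barx1* and *Tbx2* were far higher at E10.5, *Foxf1*, *Osr1* and *Nkx2-3* were lower, and *Tbx3*, *Tbx4* and *Tbx5* differed by less than 1.5-fold on the brightest probe, which for the arrays labelled *Dyrk2*-/- did not hold under spike-in scaling.

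**Figure D1:**
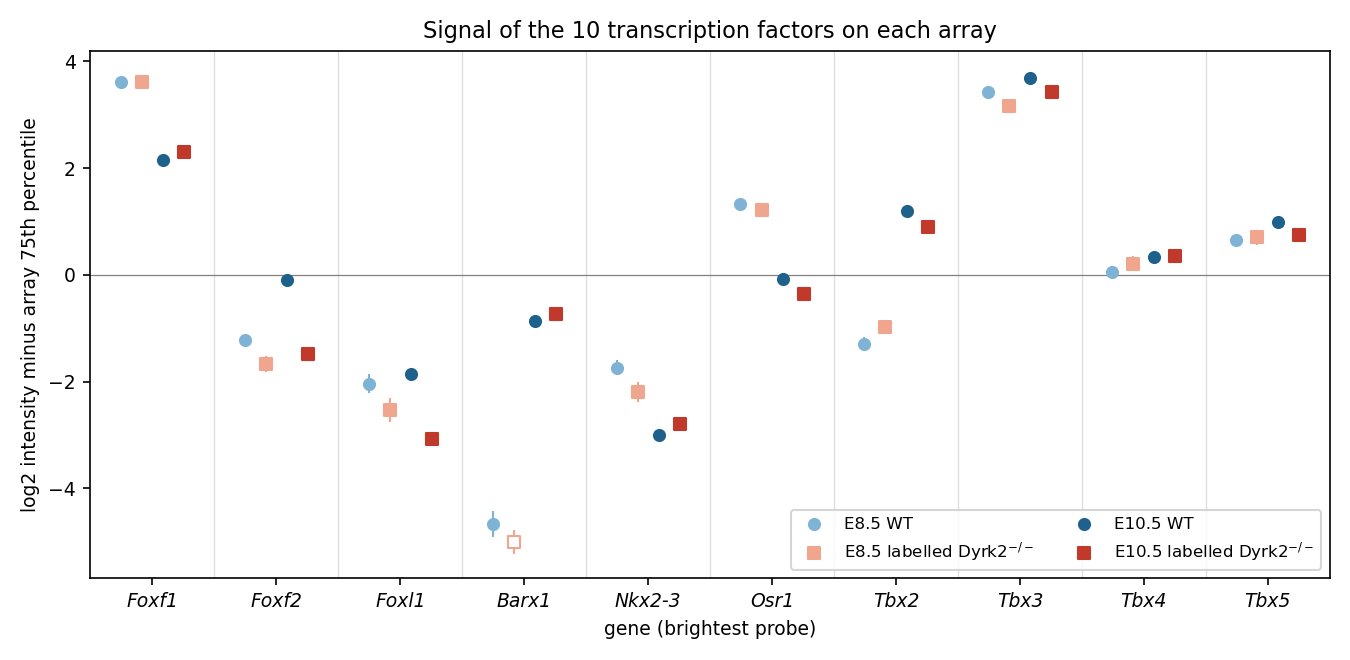
Log2 intensity minus the 75th percentile of the array for the brightest probe of each of the 10 factors on the 4 arrays, with the spot SD as bars and an open symbol where the probe was not well above background. Only arrays within 1 gene can be compared, and the E10.5 values of *Foxf2*, −0.09 on the WT array and −1.49 on the array labelled *Dyrk2*-/-, lie far apart next to those of *Foxf1*, 2.16 and 2.30.

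*Foxf1* encodes the forkhead factor that splanchnic mesoderm needs to form the muscle and vessels of gut and lung. Its probe lies at chr8:123611944-123612003 (mm9) and read 3.61 on the WT array and 3.62 on the array labelled *Dyrk2*-/- at E8.5, then 2.16 and 2.30 at E10.5. The genotypes were close at both stages, and both E8.5 arrays were higher than both E10.5 arrays. The difference between genotypes was 0.01 ± 0.15 at E8.5, with 0.13 ± 0.11 at E10.5. Its sign changed with the scaling or reached 0, with limits of −0.54 and 0.08 at E8.5 against 0.00 and 0.29 at E10.5. The study reports *Foxf1* as significantly reduced in *Dyrk2*-/- embryos by PCR, with E10.5 embryos among the material measured. The array labelled *Dyrk2*-/- was not lower at that stage here. With 1 array for each group, set against PCR, the reason for the unlike results was not tested.

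*Foxf2*, a forkhead gene of the same subfamily, acts in the mesenchyme of intestine, palate and tongue. At chr13:31723139-31723198 its probe read −1.23 on the WT array and −1.67 on the array labelled *Dyrk2*-/- at E8.5, then −0.09 and −1.49 at E10.5. The WT array of E10.5 thus stood above the other 3, which lay close together. *Foxf2* was lower by 1.36-fold on the array labelled *Dyrk2*-/- at E8.5 (log2 difference −0.44 ± 0.19) and 2.64-fold lower at E10.5 (−1.40 ± 0.14). Across the settings tried, the difference lay between −0.99 and −0.24 at E8.5, while at E10.5 it lay between −1.53 and −1.06. Seen by genotype, the signal was 2.19-fold higher at E10.5 than at E8.5 on the WT arrays (1.13 ± 0.16) and higher by 1.13-fold on the arrays labelled *Dyrk2*-/- (0.17 ± 0.18), a difference between stages that was not tested for an interaction because each group has 1 array.

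*Foxl1* encodes a forkhead factor of the mesenchyme just beneath the gut epithelium. Its probe, at chr8:123654402-123654461, read −2.04 on the WT array and −2.53 on the array labelled *Dyrk2*-/- at E8.5, then −1.86 and −3.07 at E10.5. Both WT arrays were higher than both arrays labelled *Dyrk2*-/-. The gene was lower by 1.41-fold on the array labelled *Dyrk2*-/- at E8.5 (−0.49 ± 0.29) and 2.31-fold lower at E10.5 (−1.21 ± 0.15). The settings tried put it between −1.04 and −0.15 at E8.5, while at E10.5 it lay between −1.34 and −0.59, with the smaller sizes under the normexp background correction. From E8.5 to E10.5 *Foxl1* differed by 0.18 ± 0.21 on the WT arrays and by −0.53 ± 0.24 on the arrays labelled *Dyrk2*-/-. The latter difference turned to 0.11 under spike-in scaling and passed 1.5-fold after quantile normalization (−0.64).

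The probes of the 3 forkhead genes are shown because the genotypes differ on a pair of them and not on the third. The first 30 of 60 bases are given, 5′ to 3′ on the plus strand of mm9, as the array annotation holds them, and no base is capitalized because no motif was marked.
Foxf1: cctcctttctgcactgtataaaagggacaa
Foxf2: ttttatgatcttcgtatactcacacttcgc
Foxl1: ggtccacagtgatgtctcacaacaactaag
Of the 60 bases, 36.7% were G or C in the *Foxf1* probe, 35.0% in the *Foxf2* probe and 48.3% in the *Foxl1* probe. The *Foxf1* and *Foxf2* probes shared no run longer than 8 bases, the longest between any 2 of the probes of the 10 factors.

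*Foxf1* and *Foxl1* are neighbours on chromosome 8, with *Foxc2* and *Mthfsd* between them by RefSeq order (GRCm38.p6), and their probes lie 42.4 kb apart in mm9. *Foxc2* is a forkhead gene of paraxial and vascular mesoderm, and *Fendrr* is a long noncoding RNA gene on the other side of *Foxf1*, with its probe 29.2 kb away. *Fendrr* read 1.96 on both E8.5 arrays, and at E10.5 it read 0.70 on the WT array and 0.32 on the array labelled *Dyrk2*-/-. *Foxc2* read 2.51 and 2.58 at E8.5, then 1.60 and 1.41 at E10.5. *Mthfsd* read 0.15 and 0.17 at E8.5, then 0.49 and 0.56 at E10.5. *Fendrr* and *Foxc2* were thus higher on the E8.5 arrays, while *Mthfsd* has 4 probes that did not share a direction between stages. At E10.5 the log2 differences between genotypes along the chromosome were −0.38 ± 0.14 for *Fendrr*, 0.13 ± 0.11 for *Foxf1*, 0.08 ± 0.14 for *Mthfsd*, −0.19 ± 0.14 for *Foxc2* and −1.21 ± 0.15 for *Foxl1*. Among these 5 genes, only *Foxl1* passed 1.5-fold at E10.5, and without scaling the difference of *Foxf1* came to 0.00 and that of *Mthfsd* turned below 0.

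**Figure D2:**
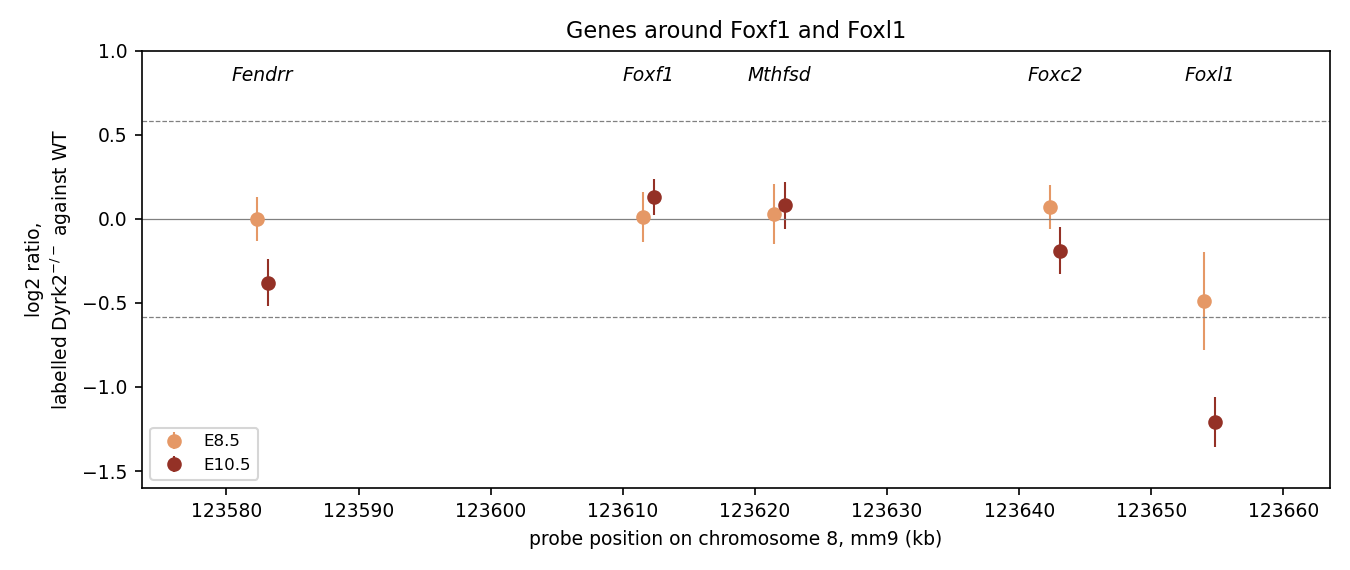
Log2 ratio of the array labelled *Dyrk2*-/- to the WT array at E8.5 and E10.5 against the mm9 position of the brightest probe of each of 5 genes on chromosome 8, with the spot error as bars and dashed lines at 1.5-fold. *Foxl1* at E10.5, at −1.21, is the only point beyond the lines, and the values shown are those scaled to the 75th percentile.

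*Fendrr* and *Foxf1* also had like differences between stages. *Fendrr* was 2.40-fold lower at E10.5 than at E8.5 on the WT arrays and 3.13-fold lower on the arrays labelled *Dyrk2*-/-, and *Foxf1* was 2.73-fold and 2.51-fold lower. *Foxc2* was 1.88-fold and 2.26-fold lower. The second forkhead locus, on chromosome 13, holds *Foxq1* and *Foxc1* beside *Foxf2*, with probes 71.2 kb and 179 kb from the *Foxf2* probe. *Foxq1* read −2.03 on the WT array and −1.91 on the array labelled *Dyrk2*-/- at E8.5, then −2.32 and −2.34 at E10.5. *Foxc1* read 1.86 and 1.99 at E8.5, then 2.16 and 1.95 at E10.5. Neither neighbour showed the separation of the E10.5 arrays seen for *Foxf2*. Of the 8 neighbour genes looked at around the forkhead and T-box factors, 0 were 1.5-fold higher or lower between genotypes at either stage on the brightest probe. Of all genes measured, 4.72% were higher and 4.53% lower at E8.5, with 2.40% and 3.09% at E10.5. Under spike-in scaling *Med13l* passed 1.5-fold lower at E8.5 (−0.72), and the median of the 8 went from 0.05 to −0.5.

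*Barx1* is a homeobox gene of the stomach mesenchyme. At chr13:48761442-48761501 its probe read −4.67 on the WT array at E8.5 and −5.01 on the array labelled *Dyrk2*-/-, where it was not well above background, and −0.86 and −0.73 at E10.5. It was near background at E8.5 and clearly measured on both E10.5 arrays. On the WT arrays it was 14.1-fold higher at E10.5 (3.81 ± 0.27), and on the arrays labelled *Dyrk2*-/- it was at least 13.9-fold higher, a bound set by the dimmest signal well above background on the E8.5 array. After normexp, which compresses dim signals, the log2 differences were 1.84 and 1.86, so the direction held and the size did not. The genotypes at E10.5 differed by 0.13 ± 0.14, with 0.00 when the arrays were not scaled, and no fold is given at E8.5.

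*Nkx2-3* is a homeobox gene of midgut and spleen mesenchyme. Its probe, at chr19:43689699-43689757, read −1.74 on the WT array and −2.19 on the array labelled *Dyrk2*-/- at E8.5, then −3.01 and −2.80 at E10.5. Both E8.5 arrays were higher than both E10.5 arrays, although under spike-in scaling the stage difference on the arrays labelled *Dyrk2*-/- went from −0.61 to 0.02. The order of the genotypes was not the same at the stages. *Nkx2-3* was lower by 1.36-fold on the array labelled *Dyrk2*-/- at E8.5 (−0.45 ± 0.24) and 1.16-fold higher at E10.5 (0.21 ± 0.15), signs that held under each setting tried (−1.0 to −0.21 and 0.08 to 0.37). Neither difference was larger than 2 spot errors.

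*Osr1* encodes a zinc finger factor of lateral and intermediate mesoderm that acts with *Osr2* in setting up the lung. At chr12:9586475-9586534 its probe read 1.32 on the WT array and 1.22 on the array labelled *Dyrk2*-/- at E8.5, then −0.07 and −0.36 at E10.5. The E8.5 arrays were both higher than the E10.5 arrays. From E8.5 to E10.5 the gene was 2.62-fold lower on the WT arrays and 2.98-fold lower on the arrays labelled *Dyrk2*-/-, while the genotypes differed by −0.10 ± 0.15 at E8.5, with −0.29 ± 0.14 at E10.5. The settings tried put the E8.5 difference between −0.65, under spike-in scaling, and −0.09, while at E10.5 it lay between −0.42 and −0.13.

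The T-box members form linked pairs, *Tbx2* with *Tbx4* on chromosome 11 and *Tbx3* with *Tbx5* on chromosome 5. *Tbx2* and *Tbx3* are repressors that keep lung mesenchyme growing, and *Tbx4* and *Tbx5* are activators needed for the lung buds, the trachea and the limbs. The probes of *Tbx2* and *Tbx4* are 74.1 kb apart and those of *Tbx3* and *Tbx5* 199516 bases apart in mm9, with 0 protein-coding genes starting between the genes of either pair in RefSeq.

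*Tbx2*, at chr11:85655384-85655443, read −1.29 on the WT array and −0.97 on the array labelled *Dyrk2*-/- at E8.5, then 1.19 and 0.89 at E10.5. *Tbx4*, at chr11:85729510-85729569, read 0.06 and 0.21 at E8.5, then 0.34 and 0.36 at E10.5. The pair thus differed between stages: *Tbx2* was higher at E10.5 by 5.58-fold on the WT arrays and by 3.64-fold on the arrays labelled *Dyrk2*-/-, while *Tbx4* was 1.21-fold and 1.11-fold higher. Between genotypes *Tbx2* was 1.25-fold higher on the array labelled *Dyrk2*-/- at E8.5 (0.32 ± 0.17), a sign that turned to −0.23 under spike-in scaling, and 1.23-fold lower at E10.5 (−0.30 ± 0.14). For *Tbx4* the genotypes differed by 0.14 ± 0.18 at E8.5, with 0.02 ± 0.14 at E10.5, and both signs changed with the scaling.

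*Tbx3*, on its brighter probe at chr5:120134511-120134570, read 3.43 on the WT array and 3.17 on the array labelled *Dyrk2*-/- at E8.5, then 3.68 and 3.42 at E10.5. Its other probe, at chr5:120132985-120133044, read 0.69 and 0.35 at E8.5, then 1.1 and 0.95 at E10.5. On each probe the WT array was the higher of the pair at both stages. The differences were −0.26 ± 0.16 and −0.25 ± 0.11 on the brighter probe and −0.34 ± 0.17 and −0.15 ± 0.14 on the other. On the brighter probe the settings tried gave −0.81, under spike-in scaling, to −0.19 at E8.5, against −0.38 to −0.09 at E10.5. At E10.5 the other probe was higher than at E8.5 by 1.33-fold in WT, against 1.52-fold in the pair labelled *Dyrk2*-/-, where the brighter probe differed by 1.19-fold. *Tbx5*, at chr5:120334087-120334146, read 0.66 and 0.70 at E8.5, then 0.99 and 0.74 at E10.5, so its genotypes differed by 0.04 ± 0.17 and −0.26 ± 0.14, and the sign at E8.5 changed with the scaling.

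**Figure D3:**
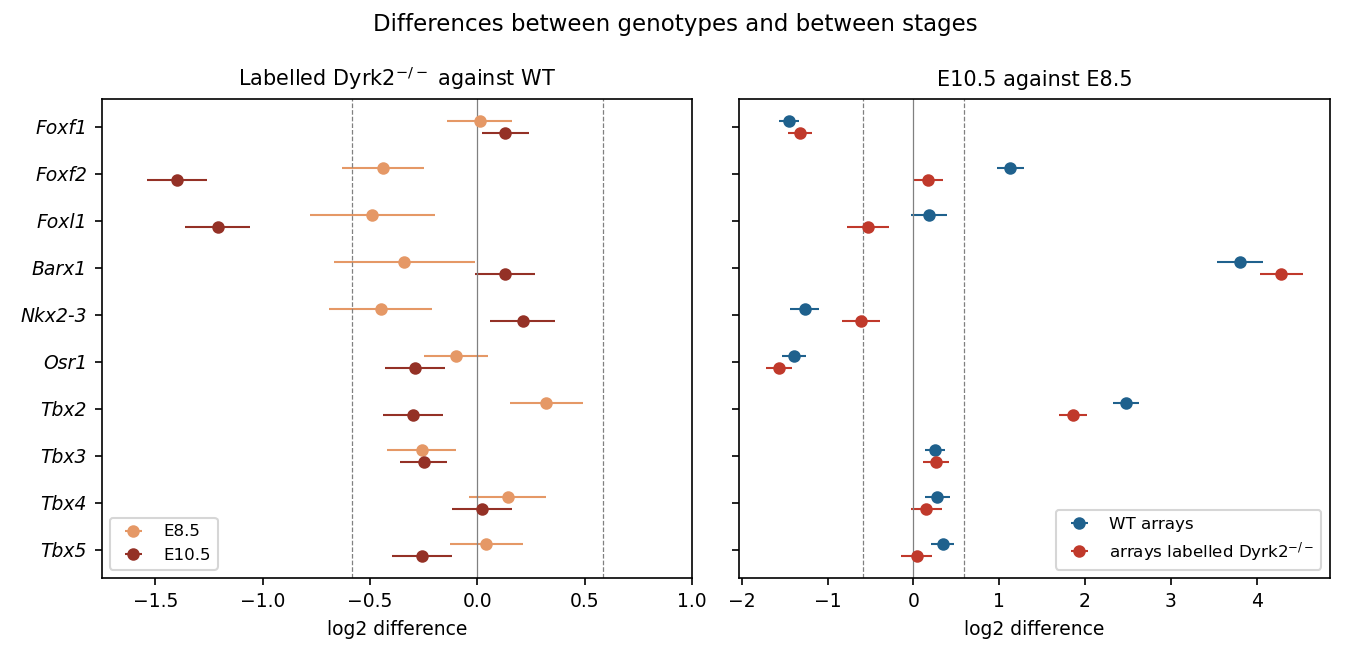
Log2 differences of the brightest probe of the 10 factors between genotypes at each stage (left) and between stages in each genotype (right), with the spot error as bars and dashed lines at 1.5-fold. *Foxf2* (−1.40) and *Foxl1* (−1.21) at E10.5 are the points beyond the lines on the left, and *Barx1* (3.81 on the WT arrays) lies farthest from 0 on the right under this scaling, where its value on the arrays labelled *Dyrk2*-/- is drawn without the bound.

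At E8.5, 0 of the 10 factors were 1.5-fold higher and 0 were 1.5-fold lower on the array labelled *Dyrk2*-/-. Among all 20709 genes measured, 4.72% were higher and 4.53% lower by this rule, so a count of 0 among 10 is close to that background. Their median log2 ratio was −0.18, with −0.10 over the 9 factors well above background on both arrays, beside −0.02 for all genes. The median of the 10 was −0.73 under spike-in scaling and −0.44 without scaling. These scalings moved the median of all genes by −0.55 and −0.26, and a shift common to all genes leaves the distance of the 10 factors from that median at −0.16. The distance was −0.13 after quantile normalization and −0.07 after normexp. Of the 9 factors well above background on both arrays, 5 were 1.5-fold lower under spike-in scaling, beside 45.9% of 19278 genes under the same rule, and 3 without scaling, beside 12.2%. Of all genes called, 49.0% were lower. Counted without the bounds for probes below background, this share was 55.9%, and it moved to 97.1% under spike-in scaling and 86.2% without scaling.

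At E10.5, 2 of the 10 factors, *Foxf2* and *Foxl1*, were 1.5-fold lower on the array labelled *Dyrk2*-/-, which is 20.0%, and 0 were higher. Of the 21209 genes measured at E10.5, 3.09% were lower and 2.40% higher. The count of lower factors is above that background, but the study had picked both genes on these arrays and they do not count as support. The median log2 ratio of the 10 factors was −0.25, beside 0.00 for all genes, and it was −0.09 under spike-in scaling, which moved the median of all genes by 0.16. Without scaling the median of all genes moved by −0.13. Of all genes called, 56.3% were lower. Counted without the bounds, the share was 54.6%, with 30.8% under spike-in scaling, 71.1% without scaling and 44.1% after normexp.

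The genotype was tested over both stages with limma, in a fit with a term for the stage that leaves 1 residual degree of freedom. Of the 10 factors 0 passed an adjusted p of 0.05, against 0.0287% of all 20901 genes tested, and 2 had an unadjusted p under 0.05. Lower on the array labelled *Dyrk2*-/- at 2 of 2 stages, *Foxf2* had a log2 difference of −0.92 (SE 0.22, adjusted p = 0.422). *Foxl1* had −0.85 (SE 0.23, adjusted p = 0.581), also lower at 2 of 2 stages. Over all probes, limma called 6 of 32289, and 1592 had an unadjusted p under 0.05. Without scaling, which moved the median of all genes down at both stages, *Foxf2* and *Foxl1* passed, beside 2.68% of all genes, and with no filter on background *Foxf2* did, beside 1.19%. Over all 9 fits the adjusted p ran from 1.62e-06 to 1.0 for *Foxf2* and from 0.00074 to 1.0 for *Foxl1*.

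The stage was tested in the same limma fit, and 6 of the 10 factors passed. As for the genotype, the SE and p-values do not measure how embryos vary. Higher at E10.5 were *Barx1*, *Tbx2* and *Foxf2*, 3 factors beside 17.2% of all genes tested, and lower were *Foxf1*, *Osr1* and *Nkx2-3*, 3 factors beside 20.5%. *Barx1* rose by 4.05 (SE 0.23, adjusted p = 3.89e-06) and *Tbx2* by 2.17 (SE 0.17, adjusted p = 2.49e-05), each in 2 of 2 genotypes. The fit takes the E8.5 value of *Barx1* that was not well above background as if it were measured, so its size is not exact, and it was 1.85 after normexp. Over the 8 fits that held it, its adjusted p ran from 2.53e-42 to 0.00415. *Foxf1* fell by 1.39 (SE 0.12, adjusted p = 4.05e-05), *Osr1* fell by 1.48 (SE 0.14, adjusted p = 5.62e-05) and *Nkx2-3* fell by 0.94 (SE 0.23, adjusted p = 0.0115), also in 2 of 2. These 5 differed the same way on both pairs of arrays. *Foxf2* was close to the threshold, at 0.65 (SE 0.22, adjusted p = 0.0468), and passed in 4 of 9 fits, with adjusted p from 1.49e-05 to 0.448. Under spike-in scaling, which moved the median of all genes between stages by 0.64 on the arrays labelled *Dyrk2*-/-, 2 factors passed, *Barx1* and *Tbx2*, beside 9.21% of all genes. The log2 differences of those that no longer passed were −1.10 for *Foxf1*, −1.20 for *Osr1*, −0.66 for *Nkx2-3* and 0.94 for *Foxf2*. Without scaling, which moved that median by 0.31 on those arrays and 0.18 on the WT arrays, 9 factors passed, with *Tbx3*, *Tbx4* and *Tbx5* added, beside 38.3% of all genes. Without the intensity trend 4 passed, beside 21.0%, and *Foxf2* and *Nkx2-3* did not. The second probe of *Tbx3* passed at 0.50 (SE 0.13, adjusted p = 0.0173), while the brighter probe, at 0.25, did not (adjusted p = 0.123). The brighter probe passed in 3 of 9 fits, which were those without scaling, after quantile normalization (0.43, adjusted p = 0.0137) and on the deposited table (0.43, adjusted p = 0.0124).

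By the 1.5-fold rule, 3 factors were higher at E10.5 on the WT arrays (*Barx1*, *Tbx2* and *Foxf2*), beside 17.3% of 21643 genes, and 3 were lower (*Foxf1*, *Osr1* and *Nkx2-3*), beside 15.9%. On the arrays labelled *Dyrk2*-/-, 2 were higher (*Barx1* and *Tbx2*), beside 14.9% of 21266 genes, and 3 were lower (*Foxf1*, *Osr1* and *Nkx2-3*), beside 13.3%. With 10 genes, counts of 2 or 3 do not stand far from these shares. Both pairs of arrays placed the same 5 factors on the same side, and *Foxf2* was the one counted on the WT arrays alone. This depends on the scaling. On the arrays labelled *Dyrk2*-/- the call of *Nkx2-3* (−0.61) ended under spike-in scaling (0.02), without scaling (−0.31) and after normexp (−0.43), and *Foxf2* (0.17) was counted as higher under spike-in scaling (0.81). *Foxl1* (−0.53) was counted as lower after quantile normalization (−0.64) and on the deposited table (−0.64). Whether the stage difference of *Foxf2* is unlike between genotypes was not tested. Under spike-in scaling 6 factors were higher at E10.5 on the arrays labelled *Dyrk2*-/-, beside 50.1% of all genes measured, and *Tbx3* (0.89), *Tbx4* (0.79) and *Tbx5* (0.68) were then among them. The comparisons between genotypes and between stages use the same 4 arrays and are not independent of each other.

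To describe likeness among the 10 factors, the 4 values of each were centred on their mean and the Euclidean distance to each of the other 9 was taken. *Foxf1* and *Osr1* were nearest to each other, at 0.32, and *Nkx2-3* was nearest to *Foxf1*, at 0.55. *Tbx4* and *Tbx5* were nearest to each other, at 0.21, and *Tbx3* to *Tbx5*, at 0.22. The nearest factors thus joined genes that were lower at E10.5 and, apart from them, the T-box genes that differed little. *Foxf2* had *Foxl1* as its nearest, at 0.84, and *Foxl1* had *Tbx3*, at 0.81. *Tbx2* was nearest to *Foxf2*, at 1.79, and *Barx1* to *Tbx2*, at 1.96, so these factors had no near match among the 10. The distances of *Barx1* take its E8.5 value that was not well above background as measured and are not exact. Among 18685 genes well above background on all 4 arrays, the 5 nearest to *Foxf1* were *Ftcd* (0.035), an intergenic transcript named by its position on chromosome 15 (0.051), *Fam83e* (0.065), *Fhl1* (0.072) and *Smim3* (0.076). *Ftcd*, which encodes an enzyme of histidine breakdown, read −2.09 and −2.08 at E8.5, then −3.52 and −3.44 at E10.5. *Fhl1*, a LIM protein gene of muscle, read 5.21 and 5.13 at E8.5, then 3.67 and 3.83 at E10.5. With 4 arrays such distances describe the arrays and nothing more.

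The 14 genes of the hedgehog pathway, from ligands to Gli factors, were all measured and were counted on their brightest probes. At E8.5, 0 were 1.5-fold higher and 1 was lower, with a median of 0.03 that turned to −0.52 under spike-in scaling and −0.23 without scaling. At E10.5, 0 were higher and 1 was lower, with a median of −0.03 that turned to 0.14 under spike-in scaling. The gene counted both times was *Hhip*, a target of the pathway whose product binds and holds back the ligands. It read −0.39 on the WT array and −1.28 on the array labelled *Dyrk2*-/- at E8.5, then 0.10 and −0.59 at E10.5. It was 1.86-fold lower at E8.5 and 1.61-fold lower at E10.5, and lower under each scaling tried, but at E10.5 the call ended under spike-in scaling (−0.53) and normexp (−0.57). Its second probe was 1.52-fold lower at E8.5, against 1.45-fold at E10.5. The targets *Gli1* and *Ptch1* were looked at after their values had been seen, and on the brightest probe both were lower on the array labelled *Dyrk2*-/- at each stage under each scaling tried. *Gli1* read 3.82 and 3.44 at E8.5, then 3.23 and 3.02 at E10.5. *Ptch1* read 1.87 and 1.58 at E8.5, then 1.19 and 0.80 at E10.5. Neither brightest probe reached 1.5-fold here, although at E8.5 both did under spike-in scaling (−0.93 and −0.84) and *Gli1* did without scaling (−0.64). Of the other 2 probes of *Ptch1*, 1 differed by 0.04 at E8.5 but was 1.65-fold lower at E10.5 (−0.72), and the dimmer 1 differed by −0.01 against 0.50, so neither was clearly lower at both stages. A dimmer probe of *Cdon* was 1.59-fold higher at E8.5 and 2.35-fold higher at E10.5, and a dimmer probe of *Sufu* was 1.75-fold lower at E10.5, calls that the brightest probes of these genes did not share.

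Among the hedgehog ligands, *Ihh* and *Dhh* differed most by stage. *Shh*, the ligand of the gut endoderm and the floor plate, read 1.06 on the WT array and 0.92 on the array labelled *Dyrk2*-/- at E8.5, then 1.16 and 0.77 at E10.5. *Ihh*, which gut endoderm and yolk sac also make, read 0.57 and 0.35 at E8.5, then −2.44 and −2.23 at E10.5. It was 8.07-fold lower at E10.5 on the WT arrays, while *Dhh* was at least 9.28-fold higher, with a log2 difference of 1.46 after normexp. For *Shh* the stages differed little, and the array labelled *Dyrk2*-/- was the lower at both stages under each scaling tried. Of the 14 genes, 3 were 1.5-fold higher at E10.5 on the WT arrays (*Dhh*, *Gas1* at 2.33-fold and *Boc* at 1.53-fold) and 4 were lower (*Ihh*, *Ptch1* at 1.61-fold, *Gli1* at 1.51-fold and *Sufu* at 1.5-fold). Each of *Boc*, *Ptch1*, *Gli1* and *Sufu* lost the call under at least 1 scaling. Among all genes measured on the WT arrays, 17.3% were higher and 15.9% lower at E10.5 by the same rule.

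The study followed 4 genes as targets of *Foxf1* in fetal lungs, where it measured them by other means. In *Dyrk2*-/- lungs it reports *Acta2* (there αSMA), *Myocd* and *Hoxb7* as reduced and *Wif1* as increased. Those lungs were of a later stage than the whole embryos here. On the brightest probes of these genes, 0 of 4 were 1.5-fold higher or lower between genotypes at either stage here, which did not hold under every scaling. *Acta2*, which encodes smooth muscle actin, read 5.26 on the WT array and 5.43 on the array labelled *Dyrk2*-/- at E8.5, then 4.09 on both at E10.5. *Myocd*, the coactivator of smooth muscle genes, read 0.32 and 0.13 at E8.5, then −2.24 and −1.70 at E10.5. Like *Foxf1*, both were higher on the E8.5 arrays. Of the other 3 probes of *Acta2*, 1 dim probe was at least 3.91-fold lower on the array labelled *Dyrk2*-/- at E8.5 and not well above background on the other 3 arrays. Another, well above background on all 4 arrays, was 1.46-fold lower at E8.5 (−0.55) and 1.25-fold lower at E10.5 (−0.32), unlike the brightest probe. The remaining probe, also well above background on all 4 arrays, was like the brightest. It differed by 0.23 at E8.5 and read 4.35 on both E10.5 arrays. *Hoxb7* read 1.38 and 1.54 at E8.5, then 2.49 and 2.16 at E10.5. *Wif1*, a secreted Wnt inhibitor of the lung, read −1.88 and −2.43 at E8.5, then −0.78 and −1.33 at E10.5. These were higher on the E10.5 arrays. At each stage *Wif1* was lower by 1.47-fold on the array labelled *Dyrk2*-/-, a direction it kept under each scaling tried. Without scaling *Wif1* passed 1.5-fold lower at E8.5 (−0.81) and at E10.5 (−0.69). Under spike-in scaling it did so at E8.5 (−1.1) but not at E10.5 (−0.39). *Myocd* also passed 1.5-fold under spike-in scaling, lower at E8.5 (−0.74) and higher at E10.5 (0.71).

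Signals that pass between foregut epithelium and mesenchyme were followed with 12 genes, of which *Wnt2b* failed to stand well above background on all 4 arrays. None of those measured, which were 10 at E8.5 but 11 at E10.5, was 1.5-fold higher or lower between genotypes. Under spike-in scaling several passed 1.5-fold lower at E8.5, among them *Wnt2* (−0.91), *Fgfr2* (−0.86), *Aldh1a2* (−0.81) and *Fgf10* (−0.73). *Wnt2* also did without scaling (−0.62). Their median was −0.03 at E8.5, with −0.58 under spike-in scaling, and −0.07 at E10.5, with 0.09 under spike-in scaling. *Fgf10*, the mesenchymal signal that draws out lung buds, read 0.49 on the WT array and 0.31 on the array labelled *Dyrk2*-/- at E8.5, then −0.42 and −0.23 at E10.5. *Wnt2*, which specifies the lung field, read 2.84 and 2.48 at E8.5, then 1.49 and 1.76 at E10.5. Both were thus higher at E8.5, as *Foxf1* and *Osr1* were, except that *Fgf10* on the arrays labelled *Dyrk2*-/- turned to 0.10 higher at E10.5 under spike-in scaling. On the WT arrays *Wnt2* was 2.56-fold lower at E10.5, *Aldh1a2*, which makes retinoic acid, 2.07-fold, *Fgf10* 1.88-fold and *Fgf9* 1.65-fold. The call of *Fgf9* ended without scaling (−0.54). Higher at E10.5 were *Rspo2*, by at least 23.1-fold, and *Wnt7b*, by 6.52-fold, and after normexp the log2 difference of *Rspo2* was 2.34.

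Another 18 transcription factors of gut and lung mesenchyme were counted in the same way. At E8.5, 1 of 17 measured was 1.5-fold higher on the array labelled *Dyrk2*-/- and 0 were lower, with a median of 0.20 that turned to −0.35 under spike-in scaling and −0.06 without scaling. The gene was *Hlx*, a homeobox gene of gut and liver mesenchyme, which read −3.07 and −2.29 at E8.5, then −3.09 and −2.83 at E10.5. At E10.5, 1 of 18 was higher and 0 were lower, with a median of −0.01 that turned to 0.15 under spike-in scaling and 0.03 after normexp. This was *Tlx1*, a homeobox gene of the spleen, which read −2.63 and −2.15 at E8.5, then −4.13 and −3.40 at E10.5. These dim probes were 1.71-fold and 1.66-fold higher, and after normexp neither call held. That of *Hlx* also ended under spike-in scaling (0.22) and without scaling (0.51).

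Between stages these 18 genes differed in both directions. On the WT arrays 7 were 1.5-fold higher at E10.5, led by *Osr2* (8.84-fold), *Wt1* (8.03-fold), *Hoxb5* (2.91-fold) and *Hoxa5* (2.75-fold). Lower were 4, *Hand1* (3.44-fold), *Tlx1* (2.82-fold), *Gata4* (2.76-fold) and *Gata6* (2.44-fold). Of all genes measured on the WT arrays, 17.3% were higher and 15.9% lower by the same rule. After normexp the log2 differences of the dim *Osr2* and *Tlx1* were 1.41 and −0.66. The related zinc finger genes *Osr1* and *Osr2* thus went opposite ways between stages: *Osr2* read −4.47 and −4.62 at E8.5, where it was not well above background on the array labelled *Dyrk2*-/-, and −1.32 and −1.88 at E10.5. On the arrays labelled *Dyrk2*-/-, 5 of the 18 were higher and 3 lower, beside 14.9% and 13.3% of all genes.

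The T-box family beyond the 4 members here was followed with 12 genes, of which *Tbx19* and *Tbx21* were below that level on all 4 arrays. At E8.5, 1 of 8 measured was 1.5-fold higher, *Tbx10* (1.75-fold), and 1 was lower, *Tbx22* (2.57-fold), with a median of 0.04 that turned to −0.50 under spike-in scaling and −0.21 without scaling. At E10.5, 0 of 10 were higher and 4 were lower, with a median of −0.38 that stayed below 0 under each scaling tried. The 4 were *Tbx6* (3.16-fold), *T* (2.81-fold), *Tbr1* (1.85-fold) and *Eomes* (1.75-fold), none of them a factor of gut or lung mesenchyme. *Tbx6*, a gene of the presomitic mesoderm, read 2.89 and 2.95 at E8.5, then −0.48 and −2.14 at E10.5. At E10.5 *Tbx2*, *Tbx3*, *Tbx4* and *Tbx5* lay between −0.30 and 0.02 by comparison.

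Several of the 10 factors are also expressed outside the gut, and the endoderm sends the signals they answer to, so markers of other tissues were read on the same arrays. Of 12 foregut endoderm markers, 0 were 1.5-fold higher and 2 of 11 measured were lower at E8.5, *Foxa2* (2.08-fold) and *Hhex* (1.82-fold), with a median of −0.42 that kept its sign under each scaling. At E10.5, 0 were higher and 3 of 10 were lower, among them *Nkx2-1* (2.28-fold) and *Cdx2* (1.64-fold), with a median of −0.15 that turned to 0.01 under spike-in scaling. Their summed signal was 43.9 on the WT array and 32.4 on the array labelled *Dyrk2*-/- at E8.5, then 15.5 and 14.1 at E10.5, with *Sox2*, which neural tissue also expresses, the brightest. *Nkx2-1* was not well above background at E8.5, *Foxa3* and *Pdx1* were not at E10.5, and *Pdx1* was not on the array labelled *Dyrk2*-/- at E8.5. Their part in the result was not tested.

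Limb buds express *Tbx2*, *Tbx3*, *Tbx4* and *Tbx5* as well. Of 9 limb bud markers, 1 of 6 measured at E8.5 was higher, *Pitx1* (1.66-fold), and 0 were lower, with a median of 0.08 that turned to −0.46 under spike-in scaling and −0.17 without scaling. At E10.5, 0 were higher and 3 of 9 were lower, *Hoxd12* (2.18-fold), *Hoxd13* (1.61-fold) and *Hoxd11* (1.54-fold), with a median of −0.24 that kept its sign. Summed, the markers gave 20.1 and 24.1 at E8.5, then 32.7 and 29.9 at E10.5, with *Pitx1* the brightest, and *Hoxd11*, *Hoxd12* and *Lhx9* were not well above background at E8.5. The small differences of the T-box members at E10.5 thus stood beside a lower signal of Hox genes of the limb and tail, and the part of limb tissue in them was not tested.

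The heart expresses *Tbx2*, *Tbx3* and *Tbx5*. Of 8 heart markers, 0 were 1.5-fold higher or lower at either stage, with medians of −0.03 at E8.5 and −0.05 at E10.5. The E8.5 median was 0.03 after quantile normalization, −0.57 under spike-in scaling and −0.28 without scaling, and that of E10.5 turned to 0.11 under spike-in scaling. At E8.5 *Tbx20* (−1.13), *Nkx2-5* (−0.95), *Tnnt2* (−0.71) and *Myh6* (−0.60) passed 1.5-fold lower under spike-in scaling. Without scaling *Tbx20* (−0.84) and *Nkx2-5* (−0.66) did. The sums were 215 and 222 at E8.5, then 116 and 118 at E10.5, with *Myh6* the brightest. Intermediate mesoderm expresses *Osr1*, and of its 6 markers 0 were called at E8.5 and 1 was lower at E10.5, *Lhx1* (1.78-fold). The medians were 0.31, which turned to −0.23 under spike-in scaling, and −0.16, which came to 0.00 under spike-in scaling. The sums were 96.6 and 117 at E8.5, then 84.1 and 78.6 at E10.5, with *Eya1* the brightest. All markers of both lists were well above background on all 4 arrays, and their part in the result was not tested.

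Of 9 erythroid markers, all 9 were 1.5-fold higher on the array labelled *Dyrk2*-/- at E8.5, and 7 were at E10.5, with medians of 4.27 and 1.12 that kept their sign under each scaling, and *Hbb-bh1* was the brightest. The E8.5 median takes values below background as measured. With bounds for them it was 4.07, and it was 2.58 after normexp. *Klf1* was among those not well above background on the WT array of E8.5. The 8 yolk sac endoderm markers included 6 that were 1.5-fold lower at E8.5 and 0 of 7 measured at E10.5, with medians of −0.63 and −0.29 that kept their sign. The sums of the yolk sac markers were 51.0 and 33.1 at E8.5, then 20.8 and 17.2 at E10.5, with *Afp* the brightest, and *Apoa4* was not well above background at E10.5, nor *Amn* on the array labelled *Dyrk2*-/-. These lists moved with genotype at E8.5, where *Foxf2*, *Foxl1* and *Nkx2-3* were lower by less than 1.5-fold, and their part in those differences was not tested. The erythroid list also moved at E10.5, where *Foxf2* (−1.40) and *Foxl1* (−1.21) passed 1.5-fold. Its part in those differences was not tested either.

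The other 3 lists covered neural, somite and maternal or placental tissue. Of 7 neural markers, 1 of 6 was higher at E8.5, *Neurog2* (1.81-fold), and 1 of 7 lower at E10.5, *Dcx* (1.51-fold), with medians of −0.04 and −0.27 that kept their sign and sums of 27.0, 27.1, 51.0 and 39.9 over the arrays in the order used above. *Sox3* was the brightest and *Dcx* was not well above background at E8.5. Of 6 somite markers, 1 was higher at E8.5, *Meox2* (2.04-fold), and 0 were called at E10.5, with medians of 0.40 and −0.10 that changed sign under spike-in scaling, sums of 15.4, 19.4, 17.4 and 17.0, and *Meox1* the brightest. Of 7 decidua and trophoblast markers, *Tpbpa* was below that level on all 4 arrays. At E8.5, 2 of 6 were higher, *Prl3d1* (at least 6.62-fold) and *Prl8a2* (2.72-fold), and 2 were lower, *Gcm1* (1.59-fold) and *Dcn* (1.57-fold), with a median of −0.41 that kept its sign. At E10.5 0 of 4 were called, with a median of 0.03 that turned to −0.10 without scaling, and *Prl3d1* and *Prl8a2* were not well above background. The sums were 16.4, 10.9, 19.0 and 23.1, with *Gcm1* the brightest, and the part of these tissues in the result was not tested. The other probes that the annotation names *Gcm1* lie on chromosomes 5 and 7. They went opposite ways between stages on the WT arrays, so the values under this name are uncertain. Over all lists, the call of 9 of 28 genes at E8.5 ended under at least 1 scaling, among them *Pitx1*, *Neurog2*, *Meox2*, *Tbx10* and *Dcn*. At E10.5 it ended for 10 of 21, among them *Cdx2*, *Hoxd11*, *Hoxd13*, *Dcx*, *Eomes* and *Tbr1*.

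Promoter sequence was searched for letters that Gli, forkhead and T-box proteins are known to bind. RefSeq (GRCm38.p6) promoters were at hand for 4 of the 10 factors, *Barx1*, *Foxf2*, *Nkx2-3* and *Tbx4*. On either strand, the Gli motif GACCACCCA was in 0.253% of 32851 promoters of 300 bases, the forkhead motif GTAAACA in 3.65% and the T-box motif TCACACCT in 1.28%. None of the 3 motifs was in any of the 4 promoters. Of 120 promoters of genes on the other lists, the forkhead motif was in 5 (*Cdx2*, *Fendrr*, *Fgf10*, *Foxa1* and *Rbp4*), the T-box motif in 1 (*Nppa*) and the Gli motif in 0. A match is a run of letters and not a bound site, and a window without one says nothing of the factor.

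A pair of promoters is printed, that of *Foxf2* because the gene had the largest difference between genotypes among the 10, and that of *Fendrr* because it lies beside *Foxf1*, was also lower at E10.5 than at E8.5, and holds a forkhead motif. Each is the 250 bases before the gene start, 5′ to 3′ on the strand of the gene, from RefSeq (GRCm38.p6). The *Foxf2* promoter is chr13:31625566-31625815 on the plus strand, and the *Fendrr* promoter is chr8:121083111-121083360 on the minus strand. Capitals mark GTAAACA.
Foxf2 promoter: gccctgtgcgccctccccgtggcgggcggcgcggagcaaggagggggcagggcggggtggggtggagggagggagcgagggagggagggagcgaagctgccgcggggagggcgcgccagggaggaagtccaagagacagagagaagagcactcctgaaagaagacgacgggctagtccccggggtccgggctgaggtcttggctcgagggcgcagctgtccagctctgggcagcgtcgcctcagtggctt
Fendrr promoter: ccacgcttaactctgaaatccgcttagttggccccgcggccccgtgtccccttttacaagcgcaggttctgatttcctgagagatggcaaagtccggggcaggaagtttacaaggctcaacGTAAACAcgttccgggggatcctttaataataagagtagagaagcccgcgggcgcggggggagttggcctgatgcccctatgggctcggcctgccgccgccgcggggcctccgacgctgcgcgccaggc
The *Foxf2* stretch was 71.6% G or C and held 0 of the motifs. In the *Fendrr* stretch, 62.0% G or C, the motif begins 129 bases before the gene start.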

How the data were processed

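RNA of 4 groups was measured on 1 one-colour array each. The authors deposited the scanner output, in which the intensity is a linear value after background subtraction, without scaling between arrays, and a series table of linear intensity whose 4 columns share 1 distribution. The file headers give Feature Extraction 10.7.1.1 and the labels 9.5.1.1.

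Spots marked as outliers were dropped, log2 intensities of spots with 1 probe were averaged, and each array had its own 75th percentile subtracted. A gene was its brightest probe over the 4 arrays. Between genotypes, dimmer probes of some list genes passed 1.5-fold where the brightest did not. Among them were *Six2* (1.68-fold lower at E10.5), *Uncx* (1.61-fold higher at E8.5) and *Meis1* (1.52-fold higher at E8.5). Comparisons took genes that the scanner software marks as well above background on 1 or both arrays, with a call at 1.5-fold or more. Where 1 array was below background, the fold is a bound against the higher of its value and the array's dimmest value well above background (log2 −4.82 and −4.53 at E8.5, −4.72 and −4.77 at E10.5, WT first). Probes well above background numbered 31370, 30226, 31818 and 31943 of 56604, and no spot was saturated. The spot error of a difference combines, over both arrays, the median SD between spots of the 9 probes nearest in signal among 300 printed at least 3 times. The number of arrays limits the precision, and 2 single arrays were compared without a test.

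limma 3.58.1 (lmFit, eBayes with an intensity trend) was fitted with stage and genotype on the 32289 probes that were well above background on 2 or more arrays, and p-values were adjusted over all of them by Benjamini-Hochberg. Alternatives were quantile normalization, scaling to 7 of 10 spike-in probes, no scaling, normexp with an offset of 50, the deposited table, filters on all arrays compared or none, the mean over a gene's probes, a 2-fold threshold and eBayes without the trend. The steps were tested on simulated data. The genes named are the 10 factors and, from each list, up to 4 with the largest called fold in each direction, all genes of lists of 4 or fewer, and the 5 genes nearest to *Foxf1*; any other gene was named after its values had been seen. The members and lists were chosen with earlier results of these data known. *Six2*, *Tbx18* and *Tbx20* are each in 2 lists. The software was Python 3.11.15 with pandas 2.3.3, numpy 2.4.6 and matplotlib 3.10.9, and R 4.3.3 with version 1.17.8 of data.table.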

Additional observations from a re-analysis of the deposited data

How the results depend on the processing

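No paired analysis was possible because each group has 1 array and the labels pair no embryos. Of 104 values recomputed under the alternatives for the counts, medians and limma calls, 94 were within 1.5 times the count or within the spot spread, and 10 moved. At E8.5 the count of factors 1.5-fold lower on the array labelled *Dyrk2*-/- went from 0 to 6 under spike-in scaling and 4 without scaling, each with *Barx1* taken as measured, and the median from −0.18 to −0.73 and −0.44. At E10.5 the median went from −0.25 to −0.09 under spike-in scaling. Between stages on the arrays labelled *Dyrk2*-/-, the count of higher factors went from 2 to 6 under spike-in scaling and to 1 when both arrays had to be well above background, because *Barx1* then had no value. limma's genotype calls went from 0 to 2 without scaling and to 1 with no filter, and its stage calls from 6 to 2 under spike-in scaling; the cause of these was not tested. For the 10 factors one by one, 36 of 120 recomputed genotype ratios moved by more than the spot error, 30 of them under spike-in scaling or without scaling, and none of the called ones changed sign. The sign at both stages held under each setting for 5 factors, *Foxf2*, *Foxl1*, *Nkx2-3*, *Osr1* and *Tbx3*. Signal over background limits *Barx1* at E8.5, where its probe was well above background on the WT array alone. No array repeats a group, so how far embryos of a genotype differ from each other is unknown.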
